A study of Pan troglodytes with 217 samples.

Results

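A set of 7 transcription factor genes of formative and primed pluripotency were examined in single cells of chimpanzee blastoids on day 4. They were taken by name from a list of factors tied to these states, out of 33729 gene identifiers in the count table, and all 7 were matched by symbol. The genes are ZIC2 (ENSPTRG00000006000), GLI2 (ENSPTRG00000012413), SALL2 (ENSPTRG00000006128), POU3F1 (ENSPTRG00000030679), OTX2 (ENSPTRG00000006381), SOX3 (ENSPTRG00000044005) and SOX11 (ENSPTRG00000045174). Blastoids are embryo models that self-organise from naive pluripotent stem cells, and here they were made from chimpanzee naive induced pluripotent stem cells. These stem cells had been kept in PXGL-A6E, a medium that includes activin, interleukin-6 and the EZH2 inhibitor EPZ-6438. Most of the mural trophectoderm had been cut off by hand, so the shares of cells describe the sequenced cells and not whole blastoids. Mural parts were dissociated apart and for longer, and the labels do not say from which part a cell came. The labels give all cells the same condition and name no line, blastoid or batch for a cell, so the cells form 1 sample, no test was possible and no p-value is given.

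Pluripotent cells of the primate embryo pass from a naive state before implantation, through a formative state in which they become able to respond to signals for lineage choice, to a primed state after implantation. OTX2 is a homeodomain factor that acts with the POU factor POU5F1 at enhancers of the formative state, and POU3F1 is another POU factor that appears during that transition. ZIC2 and GLI2 are zinc finger factors, GLI2 being an effector of Hedgehog signalling, and SALL2 is a zinc finger factor of the spalt family. SOX3 is the close relative of SOX2, and SOX11 is a SOXC factor known from early neural cells. OTX2 is also known from the anterior visceral endoderm, the signalling part of the extraembryonic endoderm in the mouse.

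At least 8000 genes were detected in 88.9% of the sequenced cells, and 24 cells fell below this and were left out. Clustering of the rest without the 7 genes gave 50 epiblast-like (EPI), 32 hypoblast-like (HYP) and 72 and 39 trophectoderm-like (TE) cells in 2 clusters. The 72 had low and the 39 high levels of the chemokine receptor gene CCR7 (23.7 and 367 CPM). CPM are the reads of a gene after every cell or class is scaled to the same total of reads on genes. Median depth was alike in the 3 classes, at 3951119 reads in EPI, 3978822 in HYP and 3960857 in TE cells. Median detected genes were 11736 in EPI, 10994 in HYP and 10986 in TE cells (10738 in CCR7-low and 11633 in CCR7-high cells), and their part in the shares below was not tested. At least 3 of the 8 markers of their own class were at 10 CPM or more in 50 of 50 EPI cells, 25 of 32 HYP cells and all TE cells. PDGFRA had a read in 32 of 32 HYP cells but FOXA2 in 15. The classes are not clean, since NANOG, with a read in 50 of 50 EPI cells, also had one in 24 of 32 HYP cells, and GATA3, with a read in 100% of the TE cells, had one in 37 of 50 EPI and 25 of 32 HYP cells. In the EPI class 20 of 50 cells held at least 3 of 8 trophectoderm markers at 10 CPM or more, as did 24 of 32 HYP cells. In turn 21 TE cells held at least 3 epiblast or 3 hypoblast markers at that level, and 22 HYP cells at least 3 epiblast markers. No doublet caller was run. Each cell has its own library, so the share of cells with a read and the level per cell can be given apart. CPM do not measure the amount of RNA in a cell, and a missing read does not show that a transcript was absent.

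The group did not behave as 1 unit. A total of 6 genes, ZIC2, GLI2, SALL2, POU3F1, SOX3 and SOX11, had their largest share of cells with a read in the EPI class, while OTX2 had its largest share in HYP cells. Among all 15804 genes with a read in at least 20 cells, the share was highest in EPI for 38%, in HYP for 13.5% and in TE, which was the case for 0 of the 7, for 25.6%. Even in the EPI class each of the 7 genes had a read in only 24% to 38% of the cells, so 0 of 7 reached 50% of the cells, against 72.1% of all genes. In HYP and in TE cells 1 of 7 reached it, OTX2 in both, where the background was 66.5% and 66.7%. The same held in each of the TE clusters, with a background of 65.4% in the CCR7-low and 69.9% in the CCR7-high cells. Only 5 of the 7 genes had a read in 20 or more cells, since ZIC2 and SOX11 had one in 19 cells each. The plot of single cells shows both patterns.

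**Figure D1:**
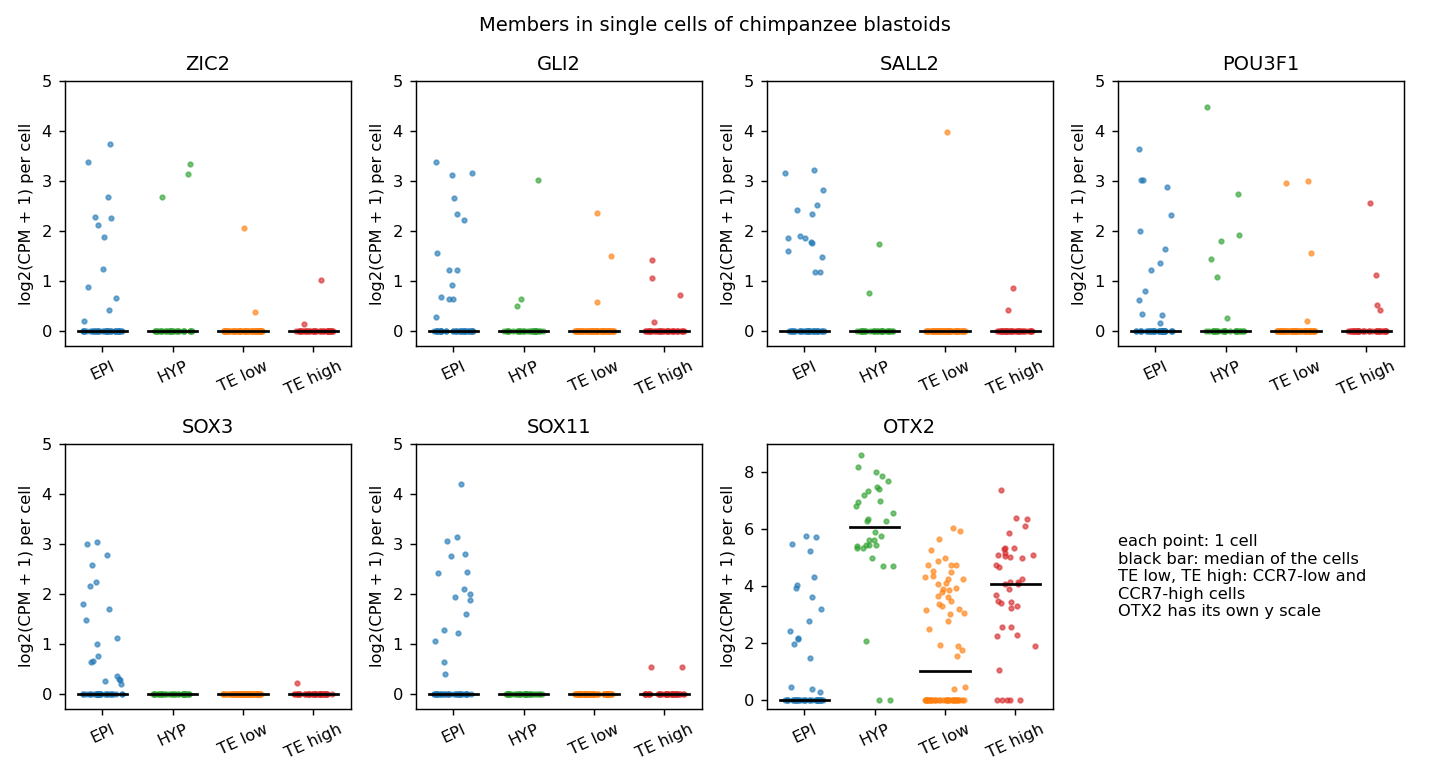
Level of each gene in each cell as log2(CPM + 1), by class (EPI, HYP, and TE cells of the CCR7-low and CCR7-high clusters), with the median as a black bar. The median is 0 in every class for 6 genes, and OTX2 alone has medians above 0, highest in HYP.

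SOX3 and SOX11 were the genes most limited to EPI cells. SOX3 had a read in 19 of 50 EPI cells (38%, exact 95% binomial interval 24.7% to 52.8%). Its pooled level, from reads summed over the cells of the class, was 0.976 CPM (exact 95% Poisson interval 0.848 to 1.12). Per EPI cell it ranged from 0 to 7.18 CPM with a median of 0. No read of SOX3 was found in 32 HYP cells, where a count of 0 leaves room for a share of 9.38% and a level of 0.0233 CPM, so the EPI level was at least 41.8-fold higher against that floor of 3 reads over the class. A single read was found among all TE cells.

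SOX11 had a read in 17 of 50 EPI cells (34%, 21.2% to 48.8%), at 1.34 CPM (1.19 to 1.502). Cells ranged from 0 to 17.4 CPM, and the highest cell held 23.3% of the reads. SOX11 also had no read in HYP cells, so that its EPI level was at least 57.3-fold higher against the same floor. In TE cells it had 4 reads in 2 cells, both in the CCR7-high cluster and both with at least 3 epiblast or hypoblast markers. All these intervals and limits cover counting error only, since reads of SMART-seq2 libraries without molecular identifiers include copies of 1 molecule. For both SOX genes the EPI class therefore stood above HYP and TE, whereas HYP and TE could not be ordered.

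SALL2 and GLI2 followed with few cells in the other classes. SALL2 had a read in 15 of 50 EPI cells (30%, 17.9% to 44.6%), and all 15 were at 1 CPM or more, between 1.25 and 8.27 CPM. Its pooled level was 1.01 CPM (0.883 to 1.16) in EPI, 0.0934 CPM (0.0482 to 0.163) in HYP and 0.0871 CPM (0.0636 to 0.117) in TE. The HYP and TE intervals overlapped, and 84.4% of the TE reads came from 1 cell at 14.9 CPM. Without that cell the TE level was 0.0136 CPM, and without its highest cell the HYP level was 0.0320 CPM.

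GLI2 had a read in 14 of 50 EPI cells (28%, 16.2% to 42.5%), 3 of 32 HYP cells and 7 TE cells (6.31%). Levels were 0.827 CPM (0.710 to 0.958) in EPI, 0.140 CPM (0.0830 to 0.221) in HYP and 0.0891 CPM (0.0652 to 0.119) in TE. The EPI cells ranged from 0 to 9.45 CPM. HYP and TE overlapped in their intervals, while EPI lay above both, and without the highest cell of each class HYP was at 0.0473 and TE at 0.0604 CPM. Without a filter on cells the EPI level was no longer the higher one, at −0.17 against HYP on the log2(CPM + 1) scale. The HYP class then held 54 cells, some of them cells that the filter had left out. Of the 24 cells left out, 2 had a GLI2 read, the highest at 161.25 CPM, and their part in this change was not tested. All 3 HYP cells with a GLI2 read held at least 3 trophectoderm markers, as did 24 of all 32 HYP cells, and 4 of the 7 TE cells held epiblast or hypoblast markers.

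ZIC2 and POU3F1 were less limited to EPI cells. ZIC2 had a read in 12 of 50 EPI cells (24%, 13.1% to 38.2%), at 0.869 CPM (0.749 to 1.00), and its highest cell was at 12.5 CPM. In HYP cells it had a read in 3 of 32 (9.38%, 1.98% to 25.02%), at 0.762 CPM (0.619 to 0.929), with 53.1% of the reads in 1 cell. The EPI and HYP intervals overlapped, but without the highest cell of each class the levels were 0.662 and 0.375 CPM. Without cells of mixed markers the order turned, with 0.182 CPM in 30 EPI cells and 0.794 CPM in 8 HYP cells, the latter from 1 cell with a read. In TE cells ZIC2 had a read in 4 cells (3.60%), at 0.0523 CPM (0.0345 to 0.0761), below both, and at 0.0157 CPM without its highest cell.

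POU3F1 had a read in 14 of 50 EPI (28%, 16.2% to 42.5%), 7 of 32 HYP (21.9%, 9.28% to 39.97%) and 8 TE cells (7.21%, 3.16% to 13.7%). Its levels were 0.846 CPM (0.727 to 0.978), 0.739 CPM (0.598 to 0.903) and 0.440 CPM (0.384 to 0.501). EPI and HYP did not separate by their intervals, and the HYP range reached 21.2 CPM, above the EPI maximum of 11.6 CPM. Without the highest cell of each class the EPI and HYP levels were 0.554 and 0.364 CPM. Without a filter on cells the order turned, at −1.99 for EPI against HYP on the log2(CPM + 1) scale. The cells left out by the filter include 1 at 752 CPM, and their part in this change was not tested. In TE cells the cell with the most reads in all held 76.2% of the POU3F1 reads, and without it the level was 0.110 CPM. Of the 7 HYP cells with a read of POU3F1, 6 also held at least 3 trophectoderm markers, against 24 of all 32, and the part of these markers in the result was not tested.

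**Figure D2:**
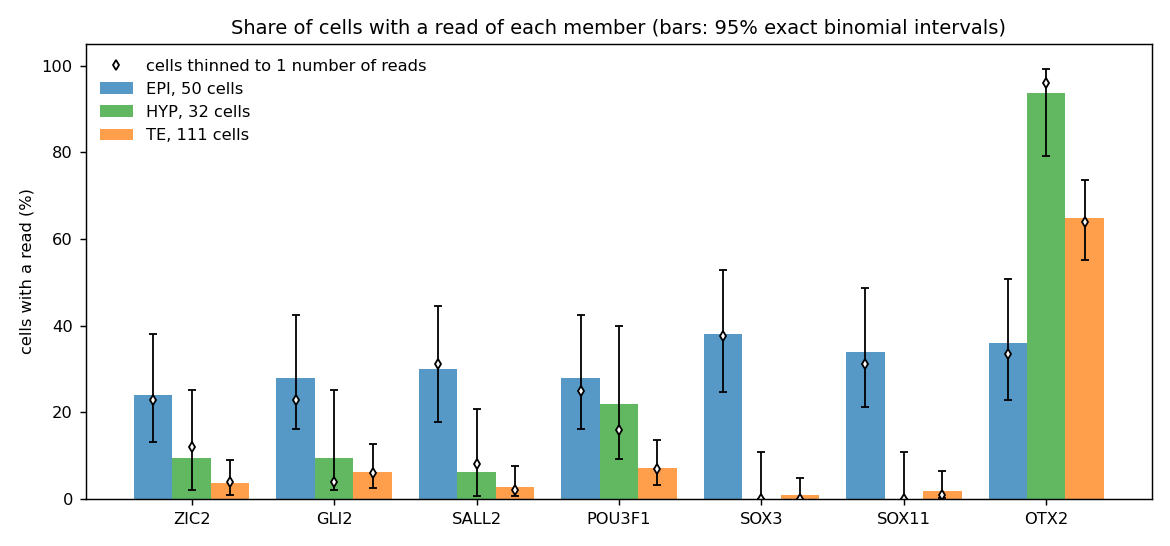
Share of EPI, HYP and TE cells with a read of each gene (bars, with exact 95% binomial intervals as lines), and the share after thinning every cell to the same number of reads (diamonds). SOX3 and SOX11 are near 0 outside EPI, and OTX2 is highest in HYP (93.8%) and lowest in EPI (36%).

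The 6 genes kept their largest share in EPI, and OTX2 in HYP, when depth was made equal. After each cell was thinned to 2532312 reads, which left 48 EPI, 25 HYP and 100 TE cells, SOX3 had a read in 18, 0 and 0 cells and SOX11 in 15, 0 and 1 cells. SALL2 then had a read in 15, 2 and 2 cells, GLI2 in 11, 1 and 6, ZIC2 in 11, 3 and 4, and POU3F1 in 12, 4 and 7. OTX2 had a read in 16, 24 and 64 cells. As a floor for stray reads, 9 of 10 matched genes of differentiated tissues, such as GFAP and INS, had a read in at most 3 of 50 EPI cells.

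OTX2 ran against the other genes and had by far the widest range. In HYP cells it had a read in 30 of 32 (93.8%, 79.2% to 99.2%), and 29 of 32 were at 10 CPM or more. The lowest HYP cell was at 0, the median at 67.9 and the highest at 384 CPM, and the pooled level was 102.8 CPM (101.01 to 104.5). In TE cells it had a read in 72 (64.9%, 55.2% to 73.7%), at 14.04 CPM (13.7 to 14.4), with a median of 7.99 and a maximum of 164.7 CPM.

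EPI cells had the least OTX2, with a read in 18 of 50 (36%, 22.9% to 50.8%) and 5.29 CPM (4.99 to 5.61). Their median was 0, and 8 of 50 reached 10 CPM, up to 53.2 CPM in the highest cell. The 3 classes were thus ordered HYP, TE, EPI, and the intervals of neighbours overlapped neither for the share nor for the level. On the scale of log2(CPM + 1), OTX2 was 4.04 lower in EPI than in HYP (−4.04) and 1.26 lower in EPI than in TE (−1.26).

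Counted at 2-fold or more on that log2(CPM + 1) scale, the 7 genes gave few differences. SOX11 was the 1 gene above in EPI against HYP (1.23) and against TE (1.21), where 10.7% and 15% of the 15804 genes were above. SOX11 is not among those genes, and over all 27089 genes with a read the shares were 6.52% and 9.07%. OTX2 was the 1 gene below in EPI against HYP and against TE, where 3.98% and 7.6% of the 15804 genes were below. OTX2 was also the 1 gene above in HYP against TE (2.79), beside 8.58% of all genes, and 0 of the 7 were below, beside 8.18%. The added 1 CPM holds down the differences of genes near 1 CPM. SOX3, at 0.98 in both EPI comparisons, and SALL2, at 0.88 and 0.89, thus lay just outside. As plain ratios of CPM, SALL2 was 10.9-fold higher in EPI than in HYP and 11.6-fold higher than in TE. GLI2 was 5.91-fold and 9.29-fold higher. ZIC2 and POU3F1 were each 1.14-fold higher than in HYP, and 16.6-fold and 1.92-fold higher than in TE. The number of genes past 2-fold therefore depends on the added value, as given below. The median difference of the 7 genes was 0.68 between EPI and HYP and 0.83 between EPI and TE, against 0.11 and 0.07 for all genes.

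Within TE cells OTX2 followed CCR7. It had a read in 34 of 39 CCR7-high cells (87.2%, 72.6% to 95.7%), from 0 to 164.7 CPM with a median of 15.8 CPM. In CCR7-low cells it had a read in 38 of 72 (52.8%, 40.7% to 64.7%), from 0 to 65.2 CPM with a median of 1.17 CPM. The pooled levels were 22.97 CPM (22.3 to 23.6) and 8.45 CPM (8.13 to 8.77), a difference of 1.34 on the log2(CPM + 1) scale, although single cells of the clusters overlapped widely. The border between the clusters moved with the seed of the clustering, and 8 of 20 other seeds gave 51 CCR7-high cells, where OTX2 was at 22.4 CPM against 6.12 CPM and had a read in 86.3% against 46.7% of the cells, the latter below 50%. OTX2 was the 1 of 7 genes above by 2-fold there, where 5.67% of all genes were above, and 0 were below, where 4.43% of all genes were.

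Across all TE cells the rank correlation (Spearman) of OTX2 was 0.52 with CCR7, 0.43 with VGLL1 and −0.45 with CDX2, an early trophectoderm factor. These cells share 1 sample, and the correlation of OTX2 with reads per cell was 0.04. CDX2 had a read in 59 of 72 CCR7-low and 11 of 39 CCR7-high cells. OTX1, the paralog of OTX2, lay the other way round, at 6.90 CPM in CCR7-low and 0.558 CPM in CCR7-high cells.

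Within HYP cells OTX2 was present with or without FOXA2, an endoderm factor. It had a read in 14 of 14 HYP cells with FOXA2 at 10 CPM or more, at 115.97 CPM (113.1 to 118.9), and in 16 of 18 without, at 93.3 CPM (91.1 to 95.5). A single cell held 32.4% of the reads of the 14, and without the highest cell of each group the levels were 86.9 and 85.3 CPM. Across the 32 HYP cells its rank correlation was 0.44 with SOX17, between 0.06 (GATA6) and 0.26 (GATA4) with the other 7 hypoblast markers, 0.33 with the homeobox gene GSC and 0.06 with reads per cell. GSC, a gene of the organiser and of anterior visceral endoderm, had a read in 28 of 32 HYP cells, at 39.2 CPM, but in 8 of 50 EPI cells and 12 TE cells (10.8%). The other genes listed beside OTX2 for anterior hypoblast were scarce in HYP cells. CER1 had no read in any class, LEFTY1 had one in 8 of 32 HYP cells, HHEX in 2, DKK1 in 3 and LHX1 in 1, while the receptor gene FZD5 had one in 24.

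**Figure D3:**
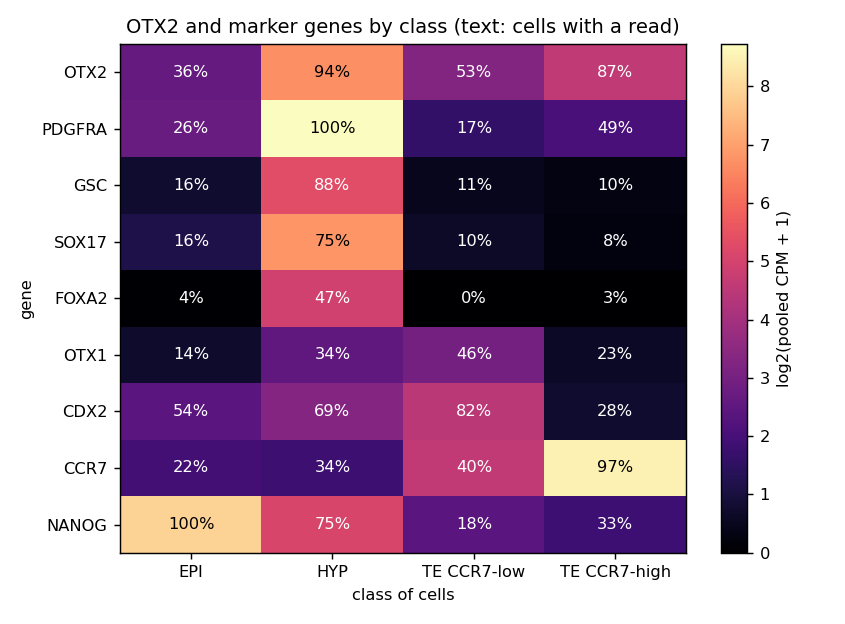
Pooled level, as log2(CPM + 1) in colour, and share of cells with a read, as text, of OTX2 and 8 other genes in the 4 clusters. OTX2 is present in 94% of HYP and 87% of CCR7-high TE cells, whereas PDGFRA, GSC, SOX17 and FOXA2 have a read in at most 48.7% of CCR7-high TE cells.

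Among EPI cells the 7 genes were unevenly spread, and 33 of 50 cells had a read of 2 or more of them. Leaving OTX2 aside, 10 of 50 EPI cells had a read of none of the other 6 genes, 9 of 1, 16 of 2, 10 of 3 and 5 of 4, and no cell had more than 4. The median was 2 genes per EPI cell, whereas it was 0 in HYP and TE cells, where 40.6% and 18.9% of the cells had a read of any. With OTX2 included the medians were 2, 1 and 1.

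The genes most often found together in EPI cells were GLI2 and SOX11, with a read of both in 9 cells. SOX11 had a read in 64.3% of the 14 EPI cells with GLI2 and in 22.2% of the 36 without. SALL2 and SOX11 shared 8 cells, and SOX11 had a read in 53.3% of the 15 cells with SALL2 against 25.7% of the 35 without. By contrast SALL2 and ZIC2 shared 2 cells, and SALL2 had a read in 16.7% of the 12 cells with ZIC2 against 34.2% of the 38 without. These were the pairs with the most and the fewest shared cells among all pairs of the genes other than OTX2. Other pairs differed less, and SOX11 had a read in 36.8% of the 19 cells with SOX3 against 32.3% of the 31 without. Groups of this size leave these shares imprecise, and the part of detected genes per cell in them was not tested.

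**Figure D4:**
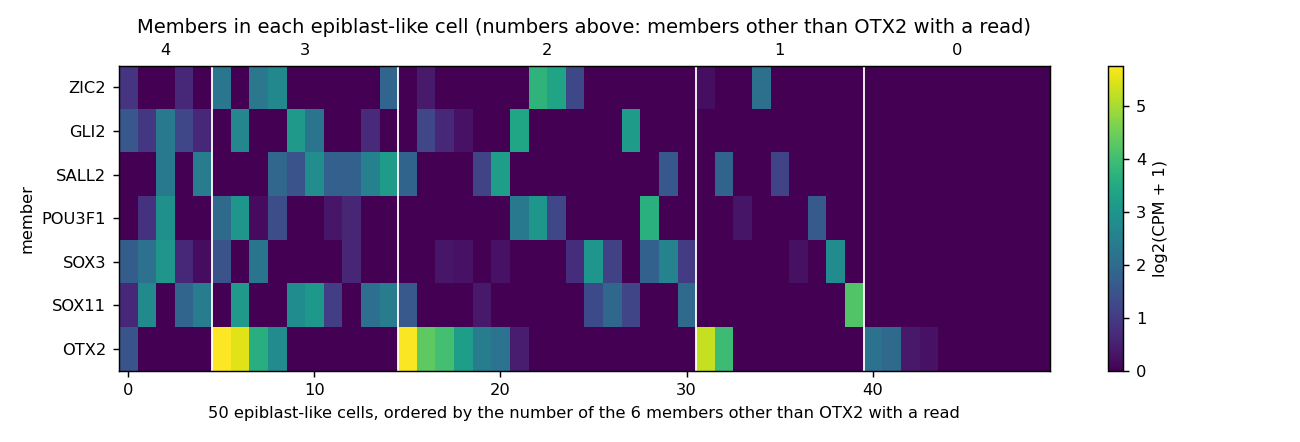
Level of each gene in each of 50 EPI cells as log2(CPM + 1), with cells ordered by how many of the 6 genes other than OTX2 had a read. No cell holds reads of more than 4 of the 6, and the OTX2 reads lie across all parts of this order.

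OTX2 was found in a larger share of the EPI cells with trophectoderm markers than of those without. It had a read in 13 of the 20 EPI cells with at least 3 trophectoderm markers (65%, 40.8% to 84.6%) and in 5 of the other 30 (16.7%, 5.64% to 34.7%). ZIC2 had a read in 8 of 20 (40%, 19.1% to 63.9%) and 4 of 30 (13.3%, 3.76% to 30.7%), and its level was 1.95 CPM (1.66 to 2.28) against 0.182 CPM (0.117 to 0.271). POU3F1 had one in 8 of 20 and 6 of 30. For these 3 genes more than 50% of the EPI cells with a read held such markers.

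The other 4 genes had smaller or opposite differences. SALL2 had a read in 3 of the 20 cells with trophectoderm markers and 12 of the 30 without, at 0.275 CPM (0.175 to 0.413) and 1.48 CPM (1.28 to 1.70). SOX3 had a read in 5 of 20 and 14 of 30, SOX11 in 4 of 20 and 13 of 30, and GLI2 in 6 of 20 and 8 of 30. The intervals of the shares overlapped for each of the 6 genes but not for OTX2. Median reads were 3745671 in the 20 cells and 4003540 in the 30. What the trophectoderm markers in these cells come from was not tested.

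**Figure D5:**
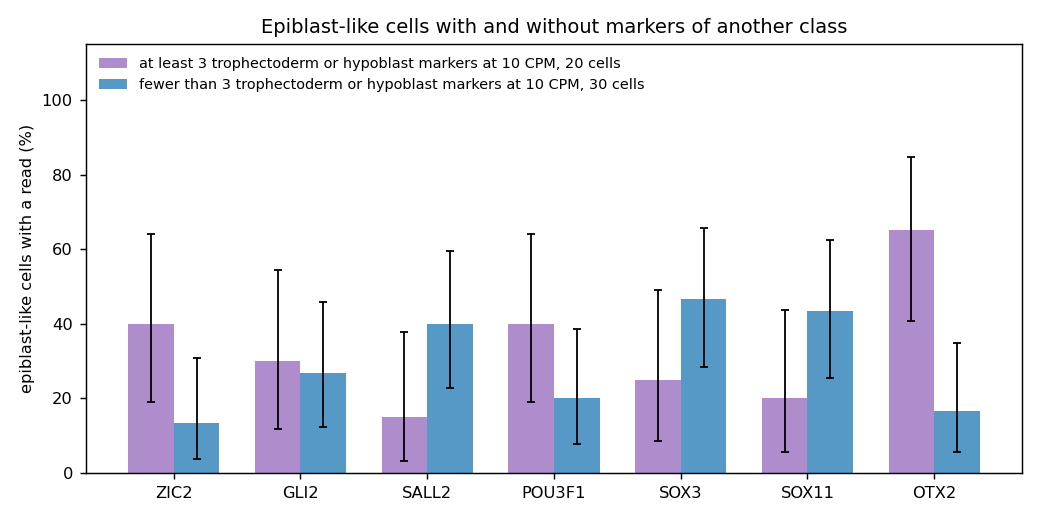
Share of EPI cells with a read of each gene, for 20 cells with and 30 cells without at least 3 markers of another class at 10 CPM, with exact 95% binomial intervals. OTX2 differs most (65% and 16.7%), and SALL2, SOX3 and SOX11 have the larger share in the cells without such markers.

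The number of the 6 genes with a read in an EPI cell went with some other genes of the same states. Across the 50 EPI cells its rank correlation with the mean log2(CPM + 1) of 13 other formative or primed pluripotency genes was 0.53, and with that of 11 naive and core factors −0.04. Of 7 single genes of that list it was 0.62 with THY1, a surface marker of primed cells, 0.40 with PTPRZ1, 0.37 with SFRP2 and with ETV4, 0.24 with ETV5, 0.19 with CDH2 and 0.08 with SALL3. The same number correlated at 0.42 with the detected genes per cell and at 0.08 with reads per cell, so cells with more detected genes also had more of the 6. The part of detected genes in the other correlations was not tested.

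The 13 other formative or primed genes were themselves mixed. Of these, 5 were 2-fold or more above in EPI against HYP and 0 below, and 7 were above and 1 below in EPI against TE. All genes stood at 10.7% above and 3.98% below against HYP and at 15% and 7.6% against TE. SFRP2, a secreted Wnt regulator, was at 17.8 CPM in EPI and had no read in HYP. THY1 was at 28.2 CPM in EPI and 2.41 CPM in HYP, and PTPRZ1, a receptor phosphatase, at 16.3 and 0.529 CPM. DNMT3B, a DNA methyltransferase that rises with formative transition, was at 209.8 CPM in EPI but 414 CPM in HYP and 403 CPM in TE. FGF5 and LEF1, genes of primed cells, had a read in 1 and 5 of 50 EPI cells.

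Of the 11 naive and core factors, 9 had a read in at least 50% of EPI cells, as did 72.1% of all genes. NANOG and KLF5 had one in 50 of 50, SOX2 in 47 and the naive factor TFCP2L1 in 39, but KLF17, another naive factor, in 10. On the same measure 5 of the 13 other formative or primed genes and 0 of the 7 genes did so. Of 5 neural genes, PAX6 and SIX3 had a read in 2 EPI cells, SOX1 in 1 and HES5 in 0, while NES, which encodes an intermediate filament, had one in all 50. Reads of SOX3, SOX11 and ZIC2 in EPI cells lay beside few reads of PAX6, SIX3, SOX1 and HES5, but beside NES in all 50. Across the 50 EPI cells the mean log2(CPM + 1) of the 5 neural genes had a rank correlation of 0.21 with the number of the 6 genes other than OTX2.

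Some relatives of the 7 genes were found in more cells than the genes themselves. SALL4 had a read in every cell and SOX4 in all EPI and HYP cells, and both were spread over the classes. SALL3 had a read in 28 of 50 EPI cells and SALL1 in 4. ZIC5, whose gene lies beside ZIC2, had a read in 12 of 50 EPI, 6 of 32 HYP and 22 TE cells (19.8%). POU3F3 and CRX had no read in any class, and POU3F4 had one in 1 cell.

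In the Hedgehog pathway of GLI2, 5 of 13 listed genes were 2-fold or more above in EPI against HYP and 0 below, and 4 were above and 0 below against TE. For all genes these shares were 10.7% above and 3.98% below against HYP, and 15% and 7.6% against TE. GLI1, which is both effector and target, had a read in 38 of 50 EPI cells, at 5.28 CPM, against 0.443 CPM in HYP and 0.544 CPM in TE. The receptor gene PTCH1 was at 5.68 CPM in EPI and at 1.22 CPM in HYP. The co-receptor gene GAS1 was at 2.66 CPM in EPI and 0.521 CPM in HYP. The ligands were scarce, with a read of SHH in 2, IHH in 4 and DHH in 2 of 50 EPI cells, and the inhibitor SUFU was at similar levels in all classes, from 6.04 to 6.70 CPM.

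The genes whose level over all cells of the 3 classes was most like that of each gene were found by rank correlation, for the 5 genes with a read in at least 20 cells. For GLI2 they were PTPRZ1 (0.55), ZNF423 (0.46) and THY1 (0.46), and within the 50 EPI cells these stood at 0.69, 0.50 and 0.64. For SOX3 they were CDCA7L (0.56), ZSCAN10 (0.55) and CRYBB1 (0.55), all with pooled levels highest in EPI. For OTX2 they were PDGFRA (0.52), DUSP5 (0.50) and GSC (0.48). The class of the cells carries part of these values, as for PDGFRA, which stood at −0.10 with OTX2 within EPI and at 0.18 within HYP cells.

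For SALL2 the most alike genes were TRIM15 (0.51), KLK1 (0.47) and TMEM271 (0.45), and for POU3F1 they were NR4A2 (0.35), NUCKS1 (0.35) and RTF1 (0.34). TRIM15 and SALL2 stood at 0.41 within EPI cells, whereas the value of 0.57 within TE cells rests on the 3 TE cells with a SALL2 read. NUCKS1 was at 42.5 CPM in EPI, 47.1 CPM in HYP and 28.2 CPM in TE, and RTF1 at 89.1, 94.7 and 87.1 CPM. With few cells above 0, ties are many, and these values describe this sample only.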

How the data were processed

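The authors deposited raw counts of reads per gene from SMART-seq2, a full-length method with 1 library per cell. Per the paper's methods, reads were trimmed with FastP, aligned to Pan_tro_3.0 with STAR and counted on Ensembl genes, while the submitters' processing notes name Trim Galore 0.6.6, STAR 2.7.7a and GRCh38 without a role. The identifiers are chimpanzee ones, and the strand setting is not given in the sources used here, so reads of a gene and of one antisense to it cannot be told apart. Symbols came from a table covering 18783 identifiers. The 7 genes, the lists and the clusters' markers were chosen with earlier results of these data known.

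Cells with fewer than 4000 reads or 8000 detected genes were left out, and 88.9% remained, with 1679888 to 25630392 reads. Clustering used Scanpy 1.11.5 (log1p of normalized totals, 50 components, 30 neighbours) and leidenalg 0.10.2 (resolution 1, seed 0) on genes with a read in at least 20 cells, without the 7 genes. Clusters were named from 8 markers per class. Pooled CPM divides summed reads by summed totals. Shares have Clopper-Pearson and CPM Poisson 95% intervals, and a count of 0 has a limit of 3 counts. Differences are of log2(CPM + 1). HES5 and SMO have more than 1 identifier and were summed. Reads were thinned to 2532312 per cell, the 10th percentile, which left out 20 cells. The genes named are the 7, the fixed lists, the markers and the 3 genes most alike by Spearman correlation for each of the 7 with a read in at least 20 cells. Procedures were tested on simulated data, with differences placed only in genes with a mean above 20 CPM. All of the 7 genes but OTX2 lay below that level, so differences at their levels were not tried. Doublets were not called. Alternatives covered the cell filter, clustering, thinning, detection limit, CPM summary and pseudocount. A few genes of the lists are counted but not reported by name here.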

Additional observations from a re-analysis of the deposited data

Results flagged for a closer look

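The 24 cells left out for having fewer than 8000 detected genes hold signal that no comparison above used. Of the 7 genes, 5 exceeded the limit of 3 reads there. POU3F1 had a read in 3 of 24 cells, at 22.4 CPM over them, with 1 cell at 752 CPM, far above the 21.2 CPM of the highest cell that passed. GLI2 had a read in 2 of 24, with the highest at 161.25 CPM. OTX2 had one in 5 of 24, at 2.60 CPM, ZIC2 in 1 of 24, with 28 reads, and SOX11 in 1 of 24, with 4 reads. SALL2 and SOX3 had no read in them, which allows up to 12.5% of such cells with one. These cells had a median of 1660767 reads and 6894 detected genes, and the labels give them the same condition as the rest.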

How the results depend on the processing

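No paired analysis was possible because the labels name no replicate, and the cells form 1 sample. Under other clusterings at most 2 cells changed class, and 20 other seeds changed none. Of these seeds, 8 gave 51 CCR7-high TE cells in place of 39. Without a cell filter 3 of the cells used above changed class. The HYP class then held 54 cells in place of 32, since it took in cells that the filter had left out. The share of HYP cells with an OTX2 read then fell to 68.5%. The counts of genes at least 2-fold apart depend on the scale. With a pseudocount of 0.1, 4 genes were above in EPI against HYP and 5 against TE, 2 in HYP against TE, and 1 was below in CCR7-high against CCR7-low TE cells. With 10, 0 were above in EPI against HYP or TE, below in EPI against TE, or above in CCR7-high TE cells. Without cells of mixed markers 3 were above in EPI against HYP and 3 against TE. With totals without mitochondrial and the 50 most abundant genes 2 and 2 were. Without a cell filter 2 were below in EPI against HYP and 2 above in HYP against TE, POU3F1 having joined OTX2. At 10 CPM or more the median number of genes per cell was 0 in EPI and 0 in TE cells, and 0 genes reached 50% of TE cells. Where the cause is not the scale or the cells left out, it was not tested. OTX2 stayed lower in EPI than in HYP by 2.88 to 4.59 (log2(CPM + 1), −2.88 to −4.59) and higher in CCR7-high than in CCR7-low TE cells by 0.84 to 1.56 in 15 of 15 alternatives, and by 1.72 with the seeds that gave 51 CCR7-high cells, which were looked at after seeing the data, as was leaving out the cell with the most reads of a gene. No single-gene difference of 2-fold or more changed sign, while smaller ones did. In EPI against HYP these were ZIC2 (−0.60 without cells of mixed markers, −0.16 thinned), GLI2 (−0.17 without a cell filter) and POU3F1 (−1.99 without a cell filter, −0.13 with the mean of the cells' CPM). Of 1330 values of single genes, 1088 stayed within the counting interval.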

Other observations

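Genes of other lineages also stood in EPI cells beside the 7 genes. ISL1, a LIM homeobox gene of amnion and mesoderm, had a read in 38 of 50 EPI cells, at 14.7 CPM, against 4 of 32 HYP cells and 7 TE cells (6.31%). The other 4 amnion genes listed were mixed, with GABRP at 0.0558 CPM in EPI and 2.23 CPM in HYP, HEY1 with a read in 4 of 50 EPI cells, IGFBP3 in 14 of 50, and TFAP2A at 12.4 CPM in EPI and 29.4 CPM in TE. MIXL1, a primitive streak gene, had a read in 17 of 50 EPI, 1 of 32 HYP and 6 TE cells, while TBXT had one in 2 EPI cells and MSGN1 in none. The rank correlation over 50 EPI cells between the number of the 6 genes other than OTX2 and ISL1 was −0.00, and with the mean of 5 amnion genes 0.04. Of 5 feeder fibroblast genes, LUM and COL1A2 had a read in 1 EPI cell each and in 0 HYP cells, and COL1A1 in 21 of 50 EPI, 7 of 32 HYP and 60 TE cells (54.1%).

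SPIC, a naive epiblast gene, was at 12.6 CPM in EPI, 9.62 in HYP and 0.0910 in TE. TBX3, counted among naive factors, was at 18.5 CPM in EPI but at 148.8 CPM in HYP and 134.7 CPM in TE, the same order of classes as OTX2.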
